A study of Mus musculus with 12 samples.

Results

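Blood coagulation and its dissolution depend on proteins that are largely made in the liver, and 32 genes of this system were followed in mouse livers after iron overload and dexamethasone (DEX, a synthetic glucocorticoid). The 32 genes were taken from a list of names, and each matched 1 row among the 55414 Ensembl genes whose reads were counted. By the role of their products, 17 are procoagulant, 8 anticoagulant and 7 fibrinolytic, the last with inhibitors and modulators of fibrinolysis included. All 32 passed the filter on low counts and were tested together with the other genes, 13857 in all.

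The livers came from 12 female C57Bl/6J mice aged 8 to 12 weeks, with 3 mice in each of 4 groups, which the submitters call biological replicates. Mice first received 300 mg/kg FeSO4 or saline (NaCl), 6 h later 10 mg/kg DEX or PBS, and livers were taken 2 h after that, so that all 4 groups stand at 8 h after the first injection. The groups are named by both injections as NaCl/PBS, NaCl/DEX, FeSO4/PBS and FeSO4/DEX. Whole livers were sequenced as poly(A) RNA, so every value below is a transcript level over all liver cells and not a plasma level of the protein.

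In the clotting cascade, tissue factor with factor VII or, on charged surfaces, factor XII with prekallikrein and kininogen start a chain of proteases that ends in thrombin, which turns fibrinogen into fibrin. Antithrombin, heparin cofactor II, tissue factor pathway inhibitor and the protein C system hold the cascade in check, and plasmin, made from plasminogen by tPA or uPA, dissolves the clot. Hepatocytes secrete most of the soluble factors, with fibrinogen among the acute-phase proteins. Thrombomodulin, factor VIII, von Willebrand factor and tPA come mainly from endothelial cells and other cells.

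Counts were scaled with TMM factors to the mean library and are given as normalized counts, and log2 fold changes (LFCs) with their standard error (SE) come from edgeR's quasi-likelihood model of all 12 libraries. A gene was called where its Benjamini-Hochberg adjusted p over all tested genes (edgeR FDR) was 0.05 or less. Totals were between 16335651 and 23827340 counted reads per mouse, and hepatocyte markers such as Alb, Ttr and Apoa1 were present in every mouse. Their sum over the list of 12 was 2418517 to 2840704 normalized counts in NaCl/PBS, 2938547 to 3255376 in NaCl/DEX, 3038288 to 3357388 in FeSO4/PBS and 3370254 to 3474908.5 in FeSO4/DEX mice. FeSO4/PBS mouse 1 stood further from its group than any other mouse, with a chi-square per gene of 89.5 and 71.4 against mice 2 and 3 and of 18.3 to 37.0 for all other pairs within groups. Without this mouse, 10 of the 32 genes were called higher and 5 lower after FeSO4, against 9 and 5 with it. With library size alone as the scale, the median LFC of all genes after FeSO4 moved from -0.02 to -0.34, so that small changes are read relative to all genes.

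In the livers of NaCl/PBS mice the 32 genes spanned a range from the most abundant liver transcripts to a few reads per library. Per kb of the canonical transcript, Fga and Fgg led with 59300 ± 10900 and 58300 ± 9430 normalized counts (SD, n = 3), and their ranges over the mice overlapped. Fgb followed with 40400 ± 6410 (SD, n = 3) per kb. Next came Kng1 (high-molecular-weight kininogen), Plg (plasminogen) and F2 (prothrombin) with 19300, 18500 and 15000 per kb, of which Kng1 and Plg differed by less than their SDs of 894 and 967. At the other end, Plat (tPA) stood at 2.74 ± 1.48 (SD, n = 3) per kb, and Plau (uPA), Plaur (the uPA receptor), Procr (the endothelial protein C receptor) and Vwf (von Willebrand factor) lay between 11.5 and 14.8 per kb. The 23 genes from Fga down to Pros1 (protein S) had 392 or more per kb, and the 9 from Tfpi downwards had 81.2 or less.

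**Figure D1:**
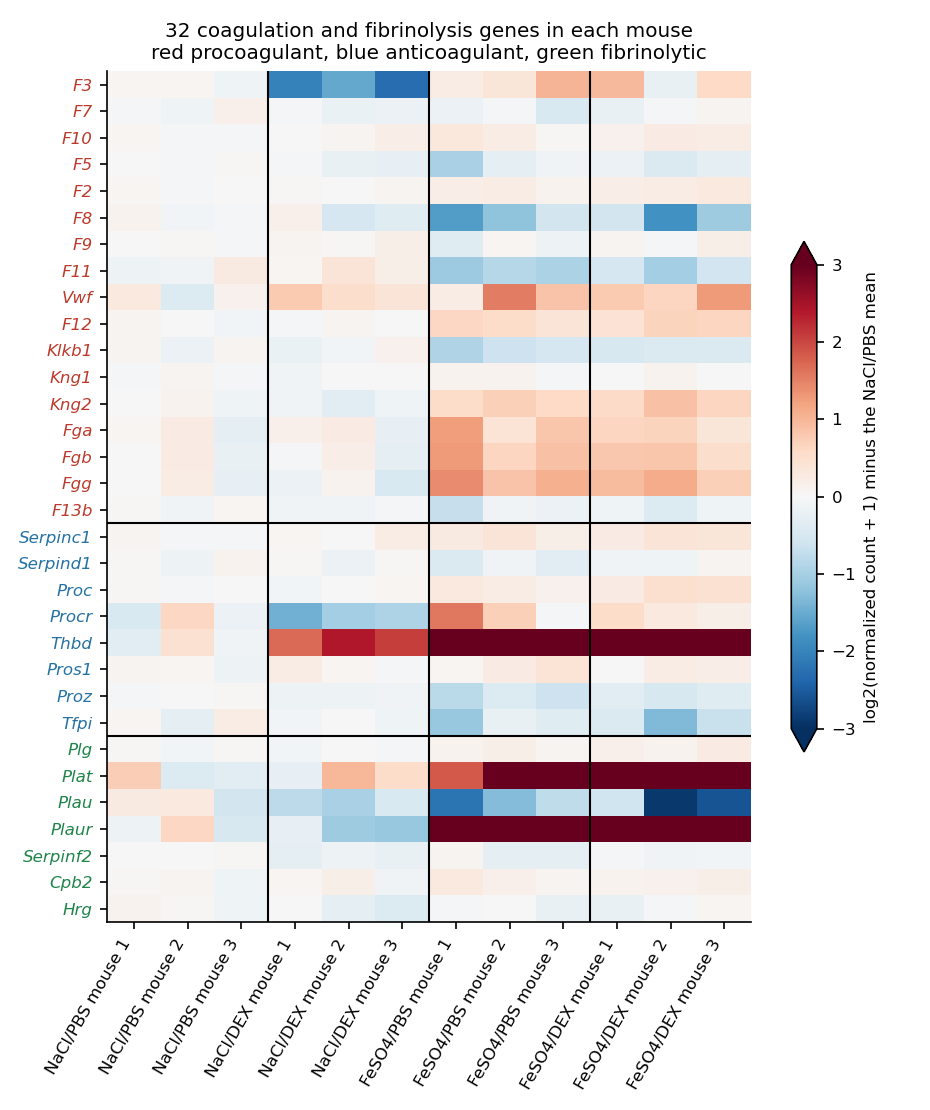
Change of each of the 32 genes in each of the 12 mice, as log2(normalized count + 1) minus the mean of the NaCl/PBS mice, with genes in rows by role and mice in columns by group. The color scale stops at 3 in both directions, and Thbd passes it in all 6 FeSO4-treated mice. Plaur does so in all of them but FeSO4/DEX mouse 3 at 2.98, and Plat in all but FeSO4/PBS mouse 1 at 1.85.

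After FeSO4 without DEX, 14 of the 32 genes were called in FeSO4/PBS against NaCl/PBS mice, 9 of them higher and 5 lower. Of all genes tested, 54.5% were called, 27.2% higher and 27.3% lower, against 28.1% and 15.6% of these 32. The median LFC of the 32 genes was 0.18, and -0.02 over all genes. With an LFC beyond 1, 4 genes rose (Thbd, Plaur, Plat and Fgg) and 2 fell (Plau and F8), where 12.5% of all genes rose and 14.7% fell by as much. In 13 of the 32 genes every FeSO4/PBS mouse lay above every NaCl/PBS mouse and in 7 every one lay below, beside 29% and 31% of all genes tested. With library size alone as the scale, 7 genes were called higher and 14 lower, beside 2285 and 5829 of all 13857.

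By role, 6 procoagulant genes rose and 3 fell out of 17 (35.3% and 17.6%). Among anticoagulant genes, 1 rose and 1 fell out of 8 (12.5% each), and 2 fibrinolytic genes rose and 1 fell out of 7 (28.6% and 14.3%). The fibrinolytic genes include Serpinf2, Cpb2 and Hrg, inhibitors or modulators of fibrinolysis, so their counts and median give no direction for fibrinolysis. Over all genes, 27.2% were called higher and 27.3% lower. The median LFCs of the 3 roles were 0.17, 0.23 and 0.12. They lay close together, while the single genes ran from -1.08 to 1.12 among procoagulant, from -0.60 to 4.43 among anticoagulant and from -1.46 to 3.97 among fibrinolytic genes. Of the 24 genes with a mean of 1000 or more normalized counts over all mice, 9 (37.5%) were called, against 60.5% of the 2568 tested genes at that level. Of the 8 genes under 1000 (F3, F8, Vwf, Procr, Tfpi, Plat, Plau and Plaur), 5 were called, or 62.5%, against 53.1% of the 11289 genes at that level.

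**Figure D2:**
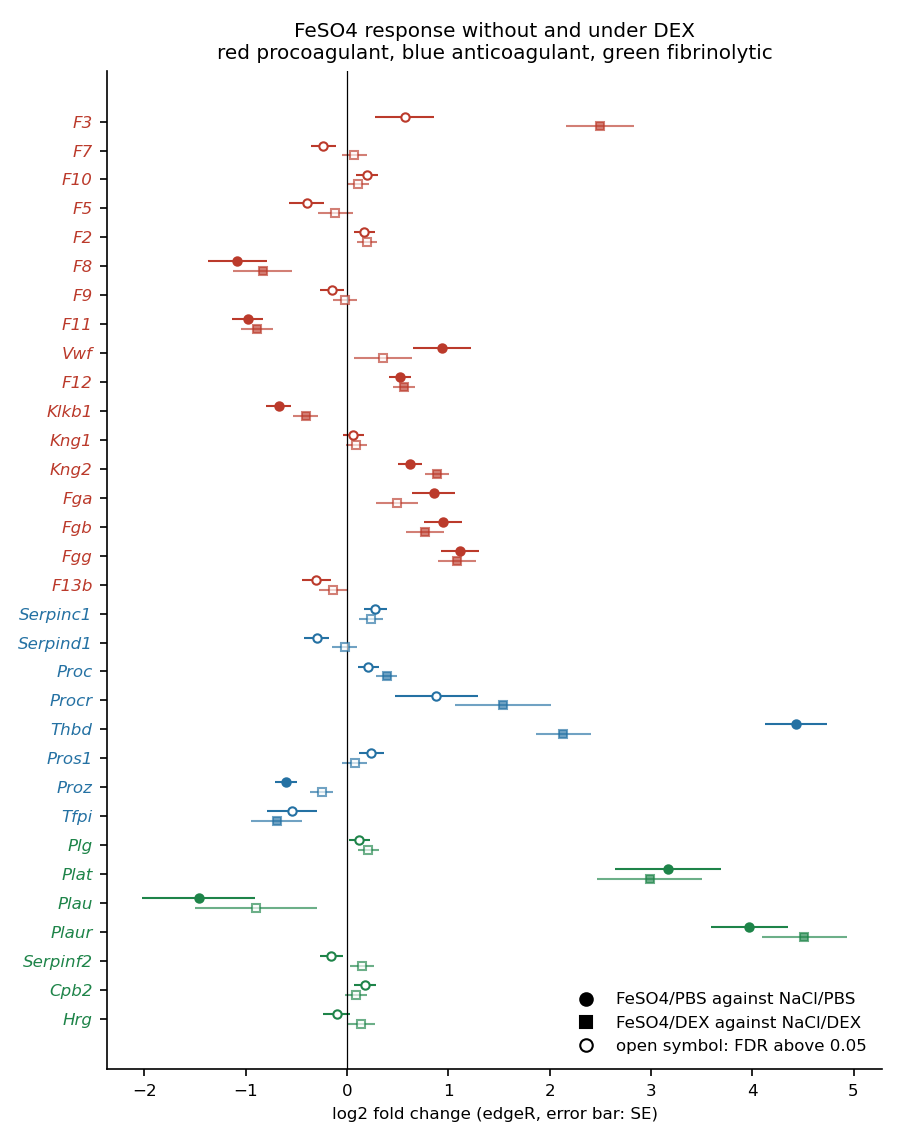
LFC (x axis, log2, with SE as error bars) of the 32 genes after FeSO4, without DEX (circles) and under DEX (squares), with genes in rows by role and open symbols for an edgeR FDR above 0.05. Thbd, Plaur and Plat lie far to the right in both comparisons, and F3 lies at 0.57 without DEX and at 2.50 under DEX.

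All 3 fibrinogen genes rose, and Fgg and Fgb had the largest LFCs among the procoagulant genes. Fga, Fgb and Fgg encode the alpha, beta and gamma chains that assemble in pairs into fibrinogen, and they lie side by side within 42.1 kb of chromosome 3 (GRCm39, 82915030 to 82957170), Fgg and Fga on the plus and Fgb on the minus strand. Together they took 2.43%, 2.81% and 2.03% of all counted reads in NaCl/PBS livers, and 4.62%, 2.98% and 3.74% after FeSO4/PBS. Mouse 1 of the FeSO4/PBS group was the highest and every FeSO4/PBS mouse lay above every NaCl/PBS mouse, with group means of 3.78% ± 0.821 and 2.42% ± 0.39 (SD, n = 3) and a two-sided exact permutation p of 0.1, the smallest that 3 mice against 3 can give.

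Normalized counts of Fgg were 109592, 127149.6 and 91729.6 in NaCl/PBS livers, and after FeSO4/PBS they were 290800.4, 196016 and 227026. The groups did not overlap, and the LFC was 1.12 (SE 0.19, edgeR FDR 2e-04), a 2.17-fold rise. Fgb rose 1.93-fold (LFC 0.95, SE 0.19, edgeR FDR 0.00068) and Fga 1.81-fold (LFC 0.85, SE 0.21, edgeR FDR 0.0035), also with no overlap between the groups. In both, FeSO4/PBS mouse 1 was the highest, and without it the LFCs of Fga, Fgb and Fgg were 0.63, 0.76 and 0.95, each still called. The ratio of Fgg to Fga per kb was 0.986 ± 0.0304 (SD, n = 3) in NaCl/PBS and 1.20 ± 0.119 (SD, n = 3) in FeSO4/PBS mice, without overlap (exact permutation p = 0.1, two-sided). In NaCl/DEX mice this ratio was 0.843 ± 0.0524 (SD, n = 3) and in FeSO4/DEX mice 1.27 ± 0.0651 (SD, n = 3).

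**Figure D3:**
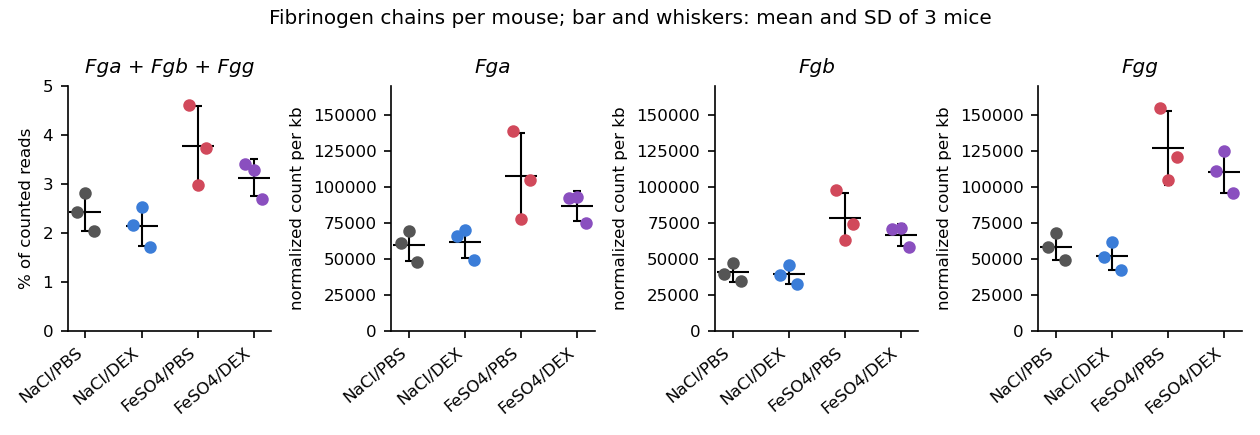
Fibrinogen transcripts in each mouse by group, as the percent of all counted reads taken by Fga, Fgb and Fgg together (left) and as normalized counts per kb of the canonical transcript of each chain, with the mean and SD of 3 mice. Every FeSO4/PBS mouse lies above every NaCl/PBS mouse in each panel, the lowest FeSO4/DEX mouse stands at 2.69% for the sum, within the NaCl/PBS range, and FeSO4/PBS mouse 1 is the highest in each panel at 4.62% for the sum.

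The bases upstream of the 3 chains are shown because these neighbouring genes rose together. All are read 5′ to 3′ on the gene's strand from GRCm39 with GENCODE vM39 starts, within 250 bases upstream of the canonical transcript and without bases annotated as untranslated region of any transcript. Capitals mark matches, on either strand, to a STAT element (TTCNNNGAA), an AP-1 element (TGANTCA), the core of an antioxidant response element (TGACNNNGC), a C/EBP element (TTGCNNAA), the inner part of an HNF1 element (GTTAATNAT), the core of a glucocorticoid response element (ACANNNTGT) or the single receptor site (AGAACA).
Fgg chr3:82914781-82915029: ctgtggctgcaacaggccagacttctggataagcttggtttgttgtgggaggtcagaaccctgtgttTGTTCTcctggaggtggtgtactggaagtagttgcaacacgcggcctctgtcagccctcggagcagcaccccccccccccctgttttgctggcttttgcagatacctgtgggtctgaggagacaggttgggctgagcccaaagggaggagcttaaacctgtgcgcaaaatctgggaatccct
Fga chr3:82933272-82933382: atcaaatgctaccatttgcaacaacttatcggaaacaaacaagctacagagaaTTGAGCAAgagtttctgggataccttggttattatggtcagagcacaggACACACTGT
Fgb chr3:82957171-82957420: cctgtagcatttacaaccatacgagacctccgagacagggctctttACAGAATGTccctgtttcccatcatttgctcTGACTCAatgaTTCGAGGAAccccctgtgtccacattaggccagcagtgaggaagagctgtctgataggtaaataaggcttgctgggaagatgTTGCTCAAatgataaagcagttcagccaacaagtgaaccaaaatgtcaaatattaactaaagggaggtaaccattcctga
Upstream of Fgb lay a glucocorticoid core match from -204 to -196, an AP-1 match from -173 to -167, a STAT match from -162 to -154 and a C/EBP match from -80 to -73, counted from the first transcribed base. Fga had a C/EBP match from -197 to -190 and a glucocorticoid core match from -148 to -140, beside an HNF1 match from -108 to -100 outside the stretch shown, and Fgg only a single receptor site from -183 to -178. Over the 250 bases upstream of 13818 tested genes, 6.69% held the STAT, 4.84% the AP-1, 10.4% the antioxidant, 8.65% the C/EBP, 0.68% the HNF1, 4.13% the glucocorticoid core and 12% the single-site letters. Of the 32 genes, 2, 6, 5, 10, 3, 4 and 6 did. A match describes letters only and does not show that a factor was bound.

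Upstream of fibrin, the contact system split. F12, the factor XII gene, rose 1.44-fold (LFC 0.53, SE 0.11, edgeR FDR 0.0011), and Kng2, the second kininogen gene of the mouse, rose 1.54-fold (LFC 0.62, SE 0.12, edgeR FDR 0.00049), each without overlap between groups. Of 12 hepatocyte markers, 5 (41.7%) were called higher and 0 lower after FeSO4 without DEX. Among tested genes with a mean of 1000 or more normalized counts, 44.5% were called higher and 16% lower. The marker sums, of which Alb made up most, did not overlap between NaCl/PBS and FeSO4/PBS mice. Taken singly, 6 of the 12 markers were higher in every FeSO4/PBS mouse and 2, Apob and Cyp2e1, were lower, beside 29% and 31% of all genes tested. The part of hepatocyte markers in the rises of fibrinogen, F12 and Kng2 was not tested. With library size alone as the scale, the LFC of F12 was 0.21 and no longer called (edgeR FDR 0.096). Kng1, the more abundant neighbour of Kng2 on chromosome 16, had an LFC of 0.06 (edgeR FDR 0.64). The pair share 125 windows of 100 bases, or 5.56% of the Kng1 and 5.6% of the Kng2 transcript, from which reads cannot be placed.

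Klkb1, which encodes prekallikrein, moved the other way. Its mice had 3226, 2667 and 3216 normalized counts in NaCl/PBS and 1613, 1969.5 and 2127 in FeSO4/PBS, so the groups did not overlap, and it fell 1.60-fold (LFC -0.67, SE 0.13, edgeR FDR 0.00051). Its level may be underestimated, since 42.1% of its transcript windows are shared with the same-strand gene Gm45753, which had 0 counts in all 12 mice.

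F11, next to Klkb1 on chromosome 8 with a gap of 4.55 kb, encodes factor XI and fell by nearly as much as F8. The NaCl/PBS mice had 1605, 1651 and 2153 normalized counts and the FeSO4/PBS mice 835, 984 and 923. All FeSO4/PBS mice were lower than all NaCl/PBS mice, a 1.97-fold fall (LFC -0.98, SE 0.15, edgeR FDR 0.00012). F9, factor IX, had an LFC of -0.15 and was not called (edgeR FDR 0.31).

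F8 encodes factor VIII, the cofactor of factor IX, which liver endothelial cells make. Controls (NaCl/PBS) had 635, 559 and 575 normalized counts, FeSO4/PBS livers 182, 256 and 402. The groups did not overlap, the LFC was -1.08 (SE 0.29, edgeR FDR 0.0064) and the fall 2.12-fold, and the FeSO4/PBS mice spread more widely than the controls. In bulk liver, fewer cells of a type and less RNA per cell cannot be told apart. Of 12 endothelial markers, 4 were lower (Kdr, Tek, Clec4g and Eng) and 2 higher (Cdh5 and Lyve1) after FeSO4, beside 27.3% and 27.2% of all genes. The sum of the 12 markers was 9801.5 to 11069.7 normalized counts in NaCl/PBS and 8514 to 10963 in FeSO4/PBS mice. Within this sum single markers moved both ways. The mean of Lyve1 was 252 in NaCl/PBS and 1786 in FeSO4/PBS mice, and that of Kdr 1193 and 324. The part of the endothelial markers in the fall of F8, and in the rise of the endothelial gene Thbd, was not tested.

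Vwf encodes von Willebrand factor, which carries factor VIII in plasma and is made by endothelial cells and megakaryocytes. Unlike F8 it was called higher, with 157, 95.4 and 140 normalized counts in NaCl/PBS and 150, 372 and 231 in FeSO4/PBS mice. The groups overlapped through FeSO4/PBS mouse 1, and the LFC of 0.94 (SE 0.29, edgeR FDR 0.013) dropped out of the calls without FeSO4/PBS mouse 2 (0.53, FDR 0.10), without NaCl/PBS mouse 2 (0.76, FDR 0.056) and with library size alone (0.62, FDR 0.083). Of 10 platelet and megakaryocyte markers, 4 were tested and 3 were higher after FeSO4 (Itga2b, Itgb3 and Ppbp), with sums of 142 to 219 and 412 to 513 normalized counts, while Gp1bb and Treml1 had 3 counts or fewer in every mouse. Of all genes tested, 27.2% were called higher. The part of these markers in the value of Vwf was not tested.

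The stretches upstream of the genes with the largest falls, among genes with a mean of at least 100 normalized counts in the higher group, all 3 procoagulant, are shown beside those of fibrinogen. They are shorter where transcripts of these or facing genes are annotated, and no capitals stand in them because no match fell into the part shown.
F8 chrX:74426039-74426135: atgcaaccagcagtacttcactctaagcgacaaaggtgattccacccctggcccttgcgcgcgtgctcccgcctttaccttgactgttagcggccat
F11 chr8:45715178-45715386: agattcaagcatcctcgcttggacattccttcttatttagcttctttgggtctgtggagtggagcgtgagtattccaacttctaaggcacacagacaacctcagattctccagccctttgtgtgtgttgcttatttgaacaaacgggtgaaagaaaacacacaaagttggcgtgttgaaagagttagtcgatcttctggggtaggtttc
Klkb1 chr8:45748070-45748150: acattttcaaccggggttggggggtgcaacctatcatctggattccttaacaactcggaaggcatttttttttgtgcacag
Within the full 250 bases, F8 held an antioxidant core match from -77 to -69, Klkb1 an antioxidant core match from -118 to -110 and a C/EBP match from -149 to -142, and F11 no match to the 7 motifs.

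The remaining procoagulant genes did not pass the test after FeSO4. Between F7 (factor VII), F10 (factor X), F5 (factor V), F2 (prothrombin), F9 and F13b (the carrier subunit of factor XIII), LFCs ran from -0.40 to 0.20. F5 had the largest of these, with 7202, 11781 and 13232 normalized counts in the FeSO4/PBS mice, all below the NaCl/PBS mice at 13669 to 14411, and an edgeR FDR of 0.069. F2 lay above the controls in every FeSO4/PBS mouse, yet its LFC was 0.17 (edgeR FDR 0.16). F3 encodes tissue factor, the membrane protein that starts coagulation, and had 90.6, 90.7 and 79.6 normalized counts in NaCl/PBS and 101, 112 and 177 in FeSO4/PBS mice. Every FeSO4/PBS mouse was higher, but the LFC of 0.57 (SE 0.29) did not pass (edgeR FDR 0.11).

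Thbd had the largest LFC of the 32 genes after FeSO4 without DEX. It encodes thrombomodulin, the endothelial receptor through which thrombin activates protein C. The NaCl/PBS mice had 84.2, 147 and 99.0 normalized counts and the FeSO4/PBS mice 1813, 2623 and 2649. The lowest treated mouse stood far above the highest control, and the LFC was 4.43 (SE 0.30, edgeR FDR 8.7e-08), a 21.6-fold rise. Over all alternatives it stayed between 4.12 and 4.69.

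Of the other 7 anticoagulant genes, 1 was called. Proz (protein Z, a cofactor in the inhibition of factor Xa) fell 1.52-fold, from 8604, 8752 and 9076 to 5048, 6584 and 5758 normalized counts, without overlap (LFC -0.60, SE 0.11, edgeR FDR 4e-04). Proc (protein C) had an LFC of 0.21 (edgeR FDR 0.10), Pros1 one of 0.24 (edgeR FDR 0.11) and Procr one of 0.88 at 21.7 to 68.5 normalized counts in FeSO4/PBS mice (edgeR FDR 0.084). Serpinc1 (antithrombin) and Serpind1 (heparin cofactor II), the serpins that inhibit thrombin, lay just outside the threshold with LFCs of 0.28 (edgeR FDR 0.052) and -0.30 (edgeR FDR 0.053). Tfpi, the inhibitor of tissue factor with factor VIIa, had an LFC of -0.55 (edgeR FDR 0.075).

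Among the fibrinolytic genes, the activators and the receptor moved and the secreted liver proteins did not pass the test. Plaur encodes the uPA receptor, which is found on leukocytes and many activated cells. Controls (NaCl/PBS) had 15.1, 26.2 and 11.8 normalized counts, FeSO4/PBS livers 221, 358 and 249. The groups lay far apart, with an LFC of 3.97 (SE 0.38, edgeR FDR 1.4e-06), a 15.7-fold rise. Of 10 neutrophil markers, 8 were tested and 6 were higher after FeSO4, their sum was 136 to 322 normalized counts in NaCl/PBS and 843 to 998 in FeSO4/PBS mice, and Ly6g had 3 counts or fewer in every mouse. Macrophage and Kupffer cell markers were lower in 9 of 12. Of all genes tested, 27.2% were called higher and 27.3% lower. The part of these cells in the rise of Plaur was not tested.

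Plat, the gene of tPA, had 11.5, 4.68 and 5.08 normalized counts in NaCl/PBS and 26.2, 112 and 61.2 in FeSO4/PBS mice. All treated mice were higher, although they differed widely among themselves, and the LFC was 3.17 (SE 0.52, edgeR FDR 0.00019), an 8.98-fold rise. Plau, the gene of uPA, went the other way, from 32.4, 32.7 and 17.8 to 5.04, 10.2 and 15.3 normalized counts, which did not overlap. These values rest on 45, 35 and 21 reads against 5, 10 and 12. Its LFC of -1.46 (SE 0.56, edgeR FDR 0.039) lost the call without FeSO4/PBS mouse 1 (FDR 0.13) or 2 (FDR 0.084) and without NaCl/PBS mouse 1 (FDR 0.11) or 2 (FDR 0.10).

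Plg (plasminogen), Serpinf2 (alpha-2-antiplasmin), Cpb2 (the carboxypeptidase known as TAFI) and Hrg (histidine-rich glycoprotein) had LFCs of 0.12, -0.15, 0.18 and -0.10, with edgeR FDRs of 0.18 to 0.54. Thus neither the zymogen of plasmin nor its main plasma inhibitor was called.

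The upstream bases of Thbd and Plaur are shown because they and Fgg had the largest rises among genes with a mean of 100 or more normalized counts in the higher group, with capitals as for fibrinogen.
Thbd chr2:148250202-148250358: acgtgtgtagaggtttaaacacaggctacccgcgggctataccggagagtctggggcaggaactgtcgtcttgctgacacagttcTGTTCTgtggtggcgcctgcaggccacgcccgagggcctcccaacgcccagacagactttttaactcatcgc
Plaur chr7:24161625-24161874: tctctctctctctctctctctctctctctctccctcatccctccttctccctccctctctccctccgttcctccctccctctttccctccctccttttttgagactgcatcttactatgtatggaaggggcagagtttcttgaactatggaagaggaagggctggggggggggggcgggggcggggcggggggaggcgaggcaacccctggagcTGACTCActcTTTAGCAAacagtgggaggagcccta
Plaur held an AP-1 match from -36 to -30 and a C/EBP match from -26 to -19, and Thbd a single glucocorticoid receptor site from -165 to -160 as its only match. The glucocorticoid core letters stood upstream of Fga, Fgb, Plg and Hrg, and not in the windows of Thbd and F3.

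**Figure D4:**
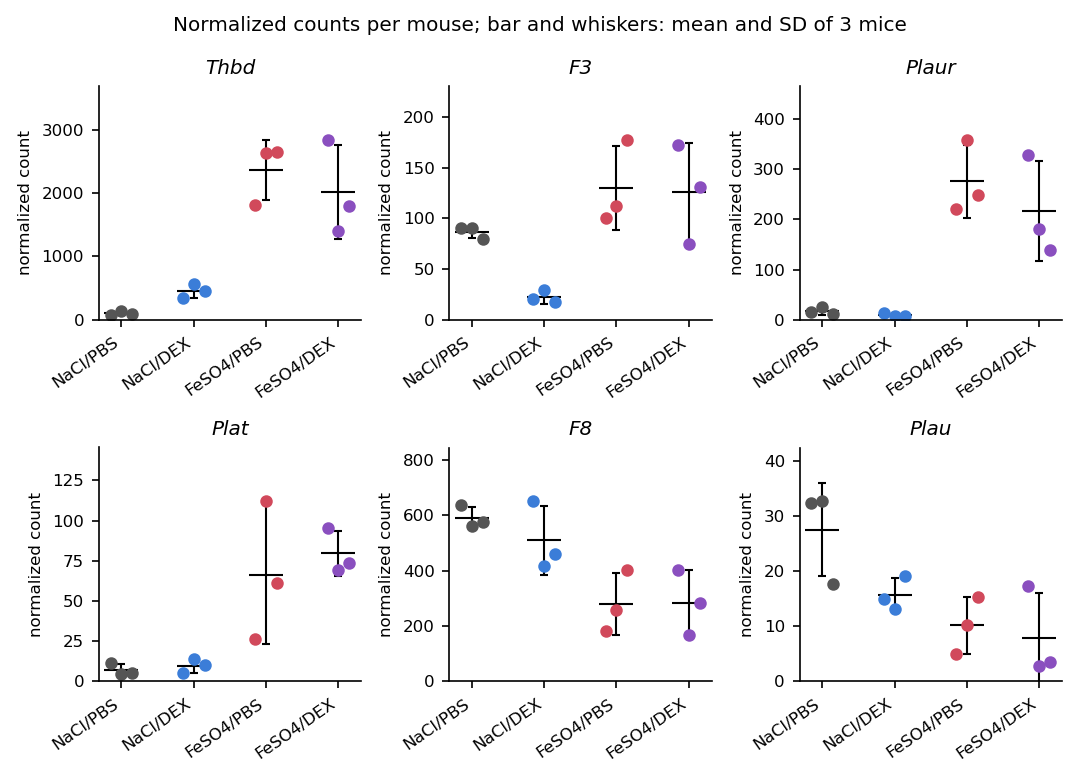
Normalized counts (y axis, from 0) of Thbd, F3, Plaur, Plat, F8 and Plau in each mouse of the 4 groups, with the mean and SD of 3 mice (the lower whisker of Plau in FeSO4/DEX is cut at 0). DEX moved Thbd up and F3 down in NaCl mice, while the FeSO4/PBS and FeSO4/DEX mice overlapped in all 6 genes.

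DEX alone, in NaCl/DEX against NaCl/PBS mice, changed 2 of the 32 genes, where 6.5% of all genes were called higher and 7.15% lower (2.97% and 3.41% with an LFC beyond 1). Thbd rose and F3 fell. Thbd had 352, 567 and 452 normalized counts in the NaCl/DEX mice, all above the controls at 84.2 to 147, a 4.18-fold rise (LFC 2.06, SE 0.28, edgeR FDR 0.00024). F3 had 20.4, 29.1 and 17.1 normalized counts in the NaCl/DEX mice, all below the controls at 79.6 to 90.7, a 3.88-fold fall (LFC -1.96, SE 0.33, edgeR FDR 0.0013). Both kept the call in all alternatives.

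The other 30 genes were not called after DEX alone. The median LFC of the 32 was -0.05, the median size of a change was 0.12 against 0.25 over all genes, and 3 of the 32 had an unadjusted p under 0.05, beside 3718 of all 13857. The groups did not overlap in 8 of the 32 genes, with every NaCl/DEX mouse higher in 3 and lower in 5, beside 17.6% and 20.3% of all genes. Procr had the next largest LFC at -1.24 (SE 0.47, edgeR FDR 0.10), with 7.51, 10.3 and 11.1 normalized counts, all below the controls at 15.8 to 34.6. The fibrinogen chains were not called, with LFCs of 0.05, -0.05 and -0.17 for Fga, Fgb and Fgg and edgeR FDRs of 0.61 to 0.91. Lyve1 and Kdr, both endothelial markers, were called after DEX alone, Lyve1 higher and Kdr lower, and the endothelial sum was 8722 to 10435.5 normalized counts. Their part in the changes of Thbd and F3 was not tested.

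In mice that had received FeSO4, none of the 32 genes was called after DEX, as was the case for all 13857 (0% called in either direction). At an unadjusted p under 0.05, edgeR found 0 of the 32 and 900 of all genes, and DESeq2 called 0 of the 32 and, over all genes, 5 higher and 4 lower. The LFCs of the 32 ran from -0.58 to 0.29 with a median of 0.04. The groups did not overlap in Klkb1 alone, where all FeSO4/DEX mice were higher, beside 4.45% of all genes higher and 4.85% lower. Thbd had 2835, 1402 and 1792 normalized counts in the FeSO4/DEX mice, 1 above and 2 below the FeSO4/PBS range of 1813 to 2649, and an LFC of -0.23 (SE 0.25, edgeR FDR 0.89). F3 had 172, 74.8 and 131, which overlapped the FeSO4/PBS mice at 101 to 177, and an LFC of -0.03 (SE 0.29, edgeR FDR 0.99).

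The difference between the DEX responses was tested as 1 contrast, which is at the same time the difference between the FeSO4 responses with and without DEX. It was called for F3 (1.93, SE 0.44, edgeR FDR 0.018) and Thbd (-2.29, SE 0.38, edgeR FDR 0.0028) and for no other of the 32 genes, beside 6.18% of all genes called, 2.99% higher and 3.2% lower. The fall of F3 and the rise of Thbd after DEX in NaCl mice thus differed from the values of -0.03 and -0.23 in FeSO4 mice, neither of which was called. For F3 the call was lost without NaCl/DEX mouse 1 (1.87, FDR 0.051) or mouse 3 (1.77, FDR 0.058). Of the other 30 genes, 1 had an unadjusted p under 0.05, beside 2830 of all 13857 genes.

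**Figure D5:**
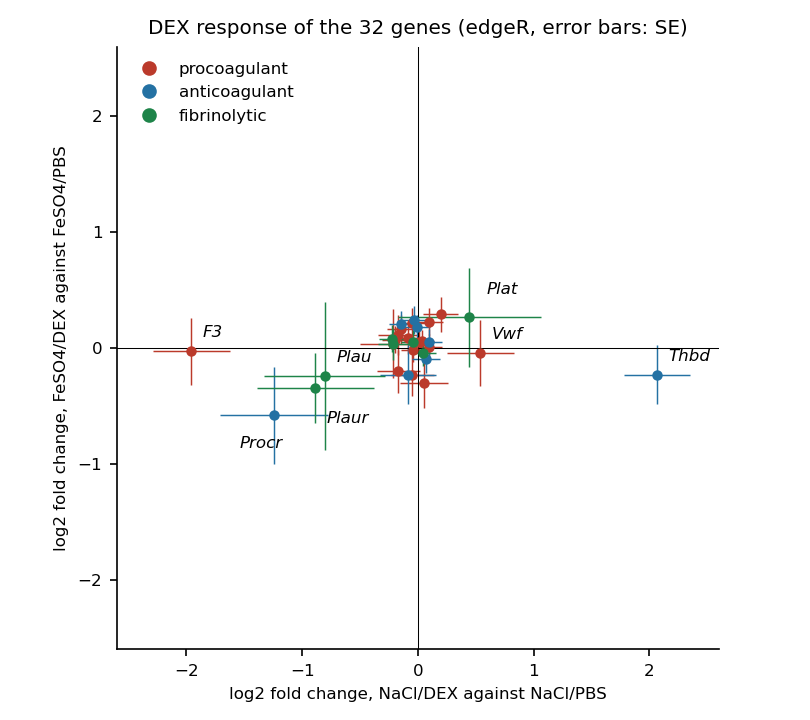
LFC after DEX in NaCl mice (x axis, log2) against LFC after DEX in FeSO4 mice (y axis, log2) of the 32 genes, with SEs as error bars and colors by role. F3 and Thbd lie at -1.96 and 2.06 on the x axis and near 0 on the y axis.

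With DEX in both groups, FeSO4/DEX against NaCl/DEX mice, 14 of the 32 genes were called, 10 higher and 4 lower, beside 22.4% and 20.9% of all genes (43.3% in all). With an LFC beyond 1, 6 were higher and 0 lower, against 10.6% and 9.83%. Every FeSO4/DEX mouse was higher in 16 genes and lower in 6, beside 28.8% and 27.1% of all genes. These mice share no library with the comparison without DEX. Of the 14 genes, F3, Proc, Procr and Tfpi had not been called without DEX, and Vwf, Fga, Proz and Plau were called without DEX alone. Only for F3 and Thbd did the 2 FeSO4 responses differ by the test above.

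F3 rose 5.66-fold, from 20.4, 29.1 and 17.1 to 172, 74.8 and 131 normalized counts, without overlap (LFC 2.50, SE 0.33, edgeR FDR 4.4e-05). Thbd rose 4.40-fold from its DEX-treated level (LFC 2.14, SE 0.27, edgeR FDR 2.6e-05), and Plaur from 14.0, 7.52 and 7.05 to 329, 181 and 139 (LFC 4.51, SE 0.42, edgeR FDR 1.9e-06). Plat had 5.37, 14.1 and 10.1 normalized counts in the NaCl/DEX mice and 95.7, 69.3 and 73.7 in the FeSO4/DEX mice (LFC 2.99, SE 0.52, edgeR FDR 0.00037). In all of these every FeSO4/DEX mouse lay above every NaCl/DEX mouse.

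Protein C and its receptor were also called here. Proc rose 1.31-fold (LFC 0.39, SE 0.10, edgeR FDR 0.0077) and Procr 2.92-fold, from 7.51, 10.3 and 11.1 to 32.9, 27.2 and 25.0 normalized counts (LFC 1.54, SE 0.47, edgeR FDR 0.017). The call of Proc was lost without FeSO4/DEX mouse 2 (FDR 0.052) and with library size alone (FDR 0.12), and that of Procr without FeSO4/DEX mouse 1 (FDR 0.054) or NaCl/DEX mouse 1 (FDR 0.060). Tfpi fell, with an LFC of -0.69 (SE 0.25, edgeR FDR 0.039), and this call was lost in 5 of the 12 fits with 1 mouse left out, with edgeR FDRs of up to 0.13.

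Among liver-made procoagulant genes, Fgg (LFC 1.09), Fgb (0.77), Kng2 (0.89) and F12 (0.57) rose and F11 (-0.89) and Klkb1 (-0.41) fell under DEX, with edgeR FDRs of 0.018 or less. F8 had 649, 417 and 460 normalized counts in NaCl/DEX and 401, 167 and 282 in FeSO4/DEX mice, an LFC of -0.83 (SE 0.29, edgeR FDR 0.033) that lost the call without FeSO4/DEX mouse 2 or 3 (FDR 0.12 and 0.076) or NaCl/DEX mouse 1 (FDR 0.14). For Klkb1 it was lost without FeSO4/DEX mouse 1 (FDR 0.051) or NaCl/DEX mouse 3 (FDR 0.087). Fga missed the threshold with an LFC of 0.49 (edgeR FDR 0.071).

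Around these 32 genes, 28 further genes of coagulation and fibrinolysis were read, of which 23 were tested. After FeSO4 without DEX 3 were higher and 5 lower, or 13% and 21.7% of the 23 against 27.2% and 27.3% of all genes. After DEX alone 2 were higher and 2 lower, 8.7% each against 6.5% and 7.15%, and after DEX in FeSO4 mice 0 and 0, as over all genes, with 2 of the 23 at an unadjusted p under 0.05. After FeSO4 under DEX 3 were higher and 4 lower, 13% and 17.4% against 22.4% and 20.9%.

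Of the genes called with an LFC beyond 1 after FeSO4, Thbs1 (thrombospondin 1, which platelets and stressed cells release) had an LFC of 4.36 (edgeR FDR 1.7e-06) and S100a10 (a subunit of a plasminogen receptor) one of 2.08 (edgeR FDR 1.7e-07). Gas6, a ligand with a domain like that of protein S, fell with an LFC of -1.04 (edgeR FDR 0.00038). Serpina5 encodes the protein C inhibitor and was near 0 in controls, with 0, 1 and 0 reads. Against 3 reads per library as a floor, it was at least 3.18-fold higher in FeSO4/PBS and at least 13.6-fold higher in NaCl/DEX mice. After DEX alone, Serpine2 (protease nexin 1) rose with an LFC of 2.31 (edgeR FDR 0.0019) and Plgrkt, a plasminogen receptor, fell with one of -1.02 (edgeR FDR 0.0037). Under DEX, Serpine2 (LFC -2.19), Serpina5 (-2.24) and Mcfd2 (-1.02) were lower after FeSO4, with edgeR FDRs of 0.0044 or less. Mcfd2 helps factors V and VIII out of the endoplasmic reticulum. Serpine2 and Serpina5 fell from their raised NaCl/DEX levels. Mean Serpine2 was 133 normalized counts in NaCl/DEX, 29.2 in FeSO4/DEX and 27.2 in NaCl/PBS mice. Serpina5 had 17, 58 and 29 reads in NaCl/DEX and 11, 5 and 3 in FeSO4/DEX mice, still above the controls. Thbs1 and S100a10 were higher under DEX too, from means of 21.7 to 357 and from 1309 to 4151 normalized counts.

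Exons of genes on the other strand overlap those of some of the 32 genes, by at most 2942 bases, in Serpinc1 with Zbtb37. Gm30097 opposite Fgg had 2 to 24 reads per library beside 79115 or more for Fgg. Since the strand setting of the counting is not given in the sources used here, reads from these overlaps cannot be assigned to a strand.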

How the data were processed

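Poly(A) RNA of 12 mouse livers was sequenced with reads of 100 cycles, and the authors aligned reads to mm39 with STAR 2.7.10b, using GENCODE splice junctions, and deposited STAR's raw read counts per Ensembl gene. Which strand column was kept is not given in the sources used here. Symbols came from GENCODE vM39 on GRCm39, the same build, and matched 54749 of 55414 genes. Genes were filtered with filterByExpr, scaled by TMM and tested with edgeR 4.0.16 (quasi-likelihood, all 12 libraries, 4 groups, limma 3.58.1, R 4.3.3), with Benjamini-Hochberg adjustment over 13857 genes and a threshold of 0.05. Single values such as the fibrinogen share were compared by two-sided exact permutation, where 3 mice against 3 cannot go below 0.1. The labels call the mice biological replicates and give no batch. Replicate numbers did not pair mice (correlations of deviations from group means -0.0919 to 0.129). DESeq2 1.42.0, other scalings, filters, a replicate block and leaving out each mouse were the alternatives. Levels per kb divide normalized counts by the canonical transcript's length. Figures were drawn with matplotlib 3.10.9.

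The members and all lists and tests were chosen with earlier results of these data known. Named with values per mouse were members called with an LFC beyond 1 after FeSO4 without DEX, or called in a DEX response or the difference. Of other pathway genes, those called with an LFC beyond 1 were named, and 1 further gene, which the rule gave by name, is not reported here. Promoters were read for the 3 largest rises and falls with a mean of 100 or more normalized counts in the higher group, and for the fibrinogen chains. The HNF1 and glucocorticoid letters were shortened after longer forms had been searched. Total counts per mouse limit the precision of low genes, and the floor of 3 counts for Serpina5 covers counting error only.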

Additional observations from a re-analysis of the deposited data

Results flagged for a closer look

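For 4 genes the DEX response in FeSO4 mice differed from that in NaCl mice by edgeR's quasi-likelihood test of the difference itself, as log2 values of the former minus the latter. F3 differed by 1.93 (SE 0.44, edgeR FDR 0.018) and Thbd by -2.29 (SE 0.38, edgeR FDR 0.0028). Lrp1, the clearance receptor that takes up tPA and factor VIII, differed by 0.58 (SE 0.15, edgeR FDR 0.039), with 15768 ± 363 normalized counts in NaCl/PBS and 11769 ± 1128 in NaCl/DEX mice (SD, n = 3), against 13440.5 ± 1089 after FeSO4 without DEX and 15048 ± 437 with it (SD, n = 3). Serpina5 differed by -6.57 (SE 1.10, edgeR FDR 0.0029), a fitted value that depends on the prior count, since its control libraries held 0, 1 and 0 reads.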

How the results depend on the processing

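Of 32 calls of the 32 genes over the 5 contrasts, 23 were kept in every alternative run and 9 were lost in at least 1, and no value changed sign. With an LFC beyond 1 required, 4 genes were higher and 2 lower after FeSO4 without DEX, and 6 and 0 under DEX. With library size alone, 14 were lower after FeSO4 without DEX and 3 after DEX in NaCl mice, where the median LFC of all genes moved to -0.34 and -0.18 and the share of calls that were higher fell from 49.9% to 28.2% and from 47.6% to 25.8%. Under DEX that share moved from 51.7% to 34.2%, and in the difference from 48.3% to 63.7%. The cause was not tested. With no filter on low counts 2 genes were higher after DEX in NaCl mice, Vwf being added, and after DEX in FeSO4 mice 99 of all genes were called higher and 71 lower, none of them among the 32. A filter of at least 10 counts in every library removed Plat, Plau, Plaur and Procr, so that 28 genes were tested. Leaving out 1 mouse at a time gave 8 to 11 genes higher and 4 to 7 lower after FeSO4 without DEX, 1 and 1 after DEX in NaCl mice, 0 and 0 in FeSO4 mice, 9 to 11 and 2 to 5 under DEX (2 without FeSO4/DEX mouse 2 or 3 or NaCl/DEX mouse 1 or 3), and 0 to 1 and 1 in the difference. With the replicate block, although the numbers do not pair the mice, 9 genes were higher and 4 lower after FeSO4 without DEX and 10 and 3 under DEX, Plau (-1.43, FDR 0.063) and Tfpi (-0.70, FDR 0.053) being lost, with 1 and 1, 0 and 0, and 1 and 1 in the other contrasts.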
